A study of Rattus norvegicus with 59 samples.

Results

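H3K27me3 in cardiomyocyte nuclei of treadmill-trained rats was compared with that of untrained control rats over all 9703 genomic bins of the deposited H3K27me3 training table. The series holds 15874 bins over both histone marks it profiled. Trained rats were male Sprague Dawley animals of about 280 g that ran intervals on an inclined treadmill for 6 weeks, 6 days a week, with 12 intervals of 8 min and rests of 2 min. The incline was 25 degrees. Controls were male Sprague Dawley rats of about 280 g that stayed off the training protocol. Age is not stated for either group. Nuclei of the left ventricle were sorted on PCM1, a centriolar satellite protein used as a label of cardiomyocyte nuclei. Chromatin from at least 100000 sorted nuclei was prepared with micrococcal nuclease and precipitated with an antibody to H3K27me3, in 4 samples per group. Rats with a banded ascending aorta, kept for 6 weeks and retained only with hypertrophied, non-failing hearts, and sham-operated rats were profiled in the same way. These male Sprague Dawley rats weighed about 170 g at surgery and are used here only for comparison. The labels do not say whether the 4 samples of a group came from separate animals.

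H3K27me3 is trimethylation of lysine 27 of histone H3. It is written by the Polycomb repressive complex PRC2 through EZH2 or EZH1 and removed by the demethylases KDM6A and KDM6B. It covers silent developmental genes in the form of facultative heterochromatin, and in the heart PRC2 is known to keep non-cardiac and fetal programmes shut. H3K9me2, the other mark of the series, is written by G9a and GLP and covers broad repressed domains.

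The deposited values are log2 RPM, the log2 of reads normalised to library size, per bin, as 1 column per group, so the 4 samples of a group cannot be told apart, no difference has a replicate error, and none could be tested. Differences below are trained minus control on this scale, and every SD describes the spread over bins. A lower value from fewer marked nuclei and one from less of the mark per nucleus cannot be told apart in such bulk samples. The sorted values of the trained and control columns were nearly the same list: 96.6% of them differed by less than 0.001 at the same rank, and the widest gap was 0.023. Both columns had a median of 5.91 log2 RPM. A change of H3K27me3 over the whole genome therefore cannot appear in these values, and they show only how the signal was distributed. The number of reads behind a bin is unknown. The sort could not be checked against marker genes, because the bins carry no gene names.

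The bins covered 2510 Mb of the 20 numbered chromosomes and were 20 to 4620 kb long, with a median of 160 kb. Signal density, taken as log2 RPM minus log2 of the length in kb and averaged over trained and control rats, lay between -4.97 and 1.00 (0.0318 to 2.00 RPM per kb). Coordinates are those of the file. No source used here names its genome build, so bins were not assigned to genes.

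Most bins had nearly the same H3K27me3 value in trained and control rats. The difference had an SD of 0.11 over bins, its middle 50% lay between -0.058 and 0.066, and 3009 bins (31% of all) differed by more than 0.1 in either direction. Trained rats were higher in 5311 bins (54.7%) and lower in 4350 (44.8%), and 42 bins were equal. Above 0.25 there were 92 bins (0.948% of all) and below -0.25 there were 169 (1.74%). The threshold of 0.5 was passed by 8 bins upward (0.0824%) and 4 downward (0.0412%), and 1 bin (0.0103%) was lower by more than 1. These counts depended in part on bins with low values. Without the lowest 10% of bins by log2 RPM, 4 were higher and 1 was lower. Adding 18.4 RPM, the 10th percentile, to both columns before the log left 0 gains and 1 loss past 0.5. That addition narrows the difference of bins at any level, and more so in bins of few RPM.

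A pattern that ran through the whole table was one of density. The bins poorest in H3K27me3 were lower in trained rats, and bins of medium and high density were higher. Bins were ranked by density and cut into 10 classes of equal size, class 1 being the sparsest and class 10 the densest. In class 1 the median difference was -0.10, with 0.151 RPM per kb in trained and 0.163 RPM per kb in control rats, and 19.5% of the 971 bins were higher in trained rats. Classes 2, 3 and 4 had medians of -0.091, -0.041 and -0.0021. From class 5 to class 10 the medians were positive: 0.022, 0.035, 0.046, 0.045, 0.036 and 0.023. The share of bins that were higher in trained rats reached 77.9% in class 7 and was 66.2% in class 10. The median was thus highest in class 7 and smaller again at the densest bins, which held 1.03 RPM per kb in trained and 1.01 RPM per kb in control rats.

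**Figure D1:**
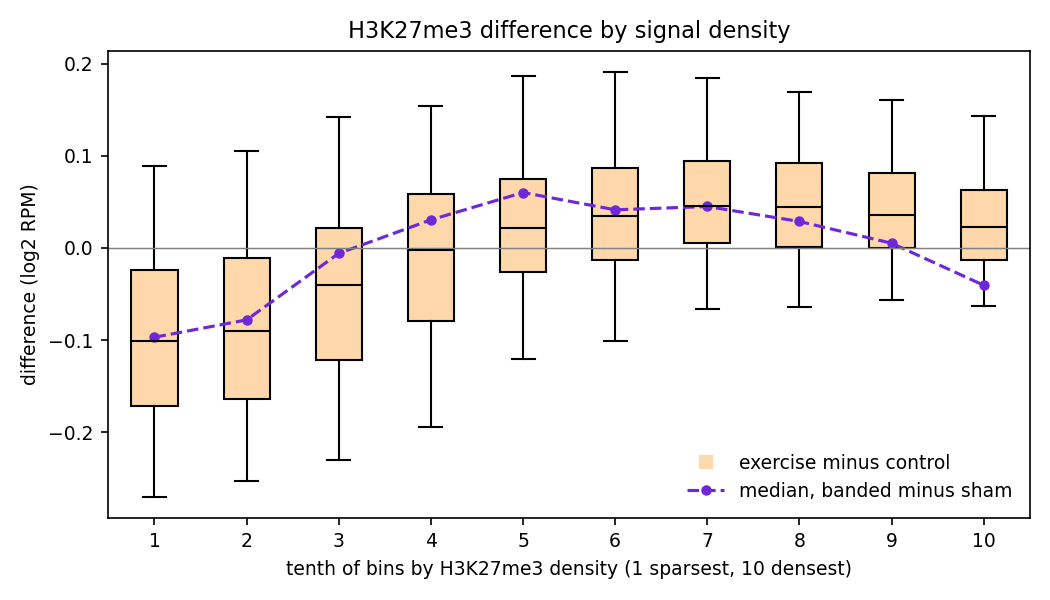
Difference in H3K27me3 (log2 RPM) for 10 density classes of bins, from sparsest (1) to densest (10). Boxes give the quartiles and median of trained (exercise) minus control, whiskers the 5th and 95th percentiles over bins, and the dashed line the median of banded minus sham in the same bins. The trained minus control median is -0.10 in class 1 and 0.046 in class 7.

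Counted as a share of all signal, class 1 held 5.13% of the RPM of trained and 5.52% of that of control rats. Class 2 held 5.52% in trained and 5.83% in control rats, and class 3 held 6.46% in trained and 6.64% in control rats. In class 10 the shares were 19.3% in trained and 19.2% in control rats, and in class 9 they were 14.9% in trained and 14.6% in control rats. Thus in trained rats slightly less of the signal lay in bins of low density. Ranked instead by total log2 RPM per bin, 10 classes of equal size showed no such gradient, with medians between -0.0046 and 0.025. That ranking is the one on which both columns share a single list of values. The spread of the difference also depended on density: its SD was 0.12 in class 1 and 0.066 in class 10.

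The ranking above uses the trained and control columns themselves. With density taken from the banded and sham columns, which come from other rats, the medians were -0.060 in class 1 and 0.014 in class 10, and the highest, 0.042, stood in class 8. The gap between classes 10 and 1 was then 0.074, against 0.12 with density from the trained and control columns.

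Bin length went with the difference as well. The 338 bins under 50 kb had a median difference of 0.088 and 74.9% of them were higher in trained rats. The 2254 bins of 50 to 100 kb had a median of 0.054 with 69.8% higher, and the 3890 bins of 100 to 250 kb one of 0.0061 with 52.8% higher. Beyond that the sign turned. The 2029 bins of 250 to 500 kb had a median of -0.0068, the 893 bins of 500 to 1000 kb one of -0.0050, and the 299 bins of at least 1000 kb one of -0.015, with 30.1% higher in trained rats. Long bins were sparser, with a median density of -2.09 for those of at least 1000 kb and -1.38 for those under 50 kb.

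Length and density were also crossed, with the bins cut into 3 equal density groups called sparse, middle and dense. In the dense group, the median difference was 0.14 under 50 kb (114 of 120 bins higher in trained rats), 0.072 at 50 to 100 kb (789 of 917), 0.027 at 100 to 250 kb, 0.012 at 250 to 500 kb and 0.0044 at 1000 kb or more. The middle group gave 0.085 under 50 kb (118 of 153 bins higher) and -0.0035 at 1000 kb or more (40 of 95). In the sparse group every length class had a negative median, from -0.10 at 250 to 500 kb (153 of 725 bins higher) to -0.030 at 1000 kb or more (35 of 175). The medians of the sparse group did not follow length in order, with -0.046 under 50 kb and -0.081 at 100 to 250 kb. Short dense bins were thus the class with the highest median, and sparse bins of 250 to 500 kb the one with the lowest.

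**Figure D2:**
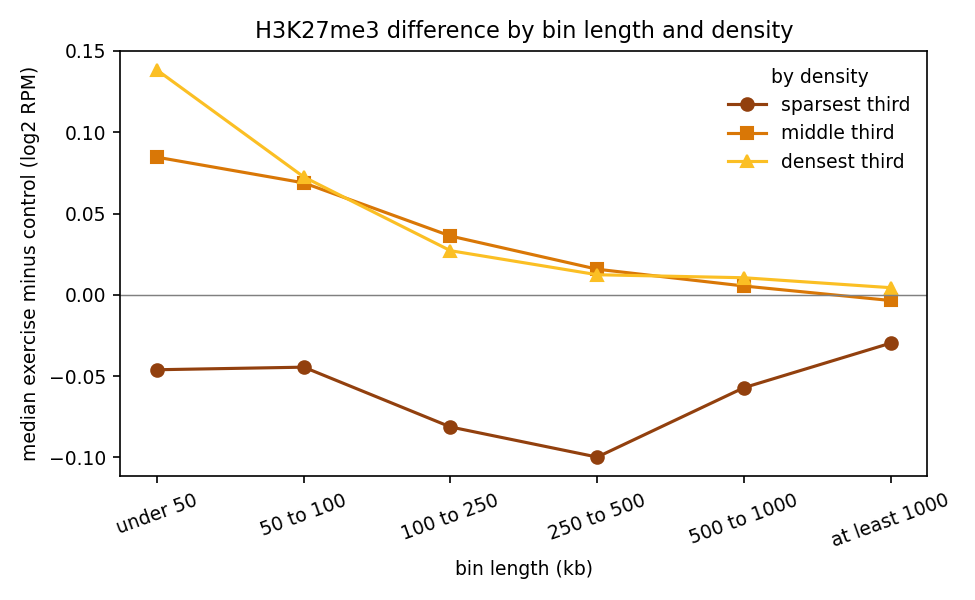
Median trained (exercise) minus control H3K27me3 (log2 RPM) by bin length in kb, with 1 line for each of 3 equal density groups. The sparse group lies below 0 at every length, and in the middle and dense groups the median is highest under 50 kb (0.14 in the dense group).

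By chromosome, 4 of the 20 medians were below 0. Chromosome 12 had the lowest median difference, -0.049 over 195 bins, of which 25.1% were higher in trained rats. Chromosome 19 followed with -0.029 over 233 bins (34.3% higher), chromosome 10 with -0.020 over 494 bins (39.1%) and chromosome 20 with -0.012 over 201 bins (45.8%). Chromosomes 10 and 12 are known as gene-dense in the rat. The other 16 chromosomes had medians from 0.0023 on chromosome 13 to 0.029 on chromosome 16, where 63.5% of 337 bins were higher, and 0.024 on chromosome 2, where 63.0% of 873 bins were higher. The medians spanned 0.079, and the SD of bins within a chromosome was 0.099 to 0.13. The upper quartile of chromosome 12, 0.00035, lay below the medians of all 16 chromosomes with a positive median.

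Chromosome 12 held 2.05% of all H3K27me3 RPM in trained and 2.13% in control rats, and chromosome 10 held 5.42% in trained and 5.50% in control rats. Chromosome 2 held 8.43% in trained and 8.34% in control rats. Chromosomes 12 and 10 were not sparse: their median densities were -1.33 and -1.25, above the -1.54 of all bins. After the median of its density class was taken off each bin, the chromosome medians still spanned 0.082, from -0.060 on chromosome 12 to 0.022 on chromosome 2. In the sparse group the median difference was -0.15 on chromosome 12 (3 of 63 bins higher in trained rats), -0.15 on chromosome 10 (14 of 148) and -0.13 on chromosome 19 (6 of 83), against -0.031 on chromosome 2 (131 of 349). Chromosome 12 also had the lowest median of the 20 in the middle group (-0.037) and in the dense group (-0.016).

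**Figure D3:**
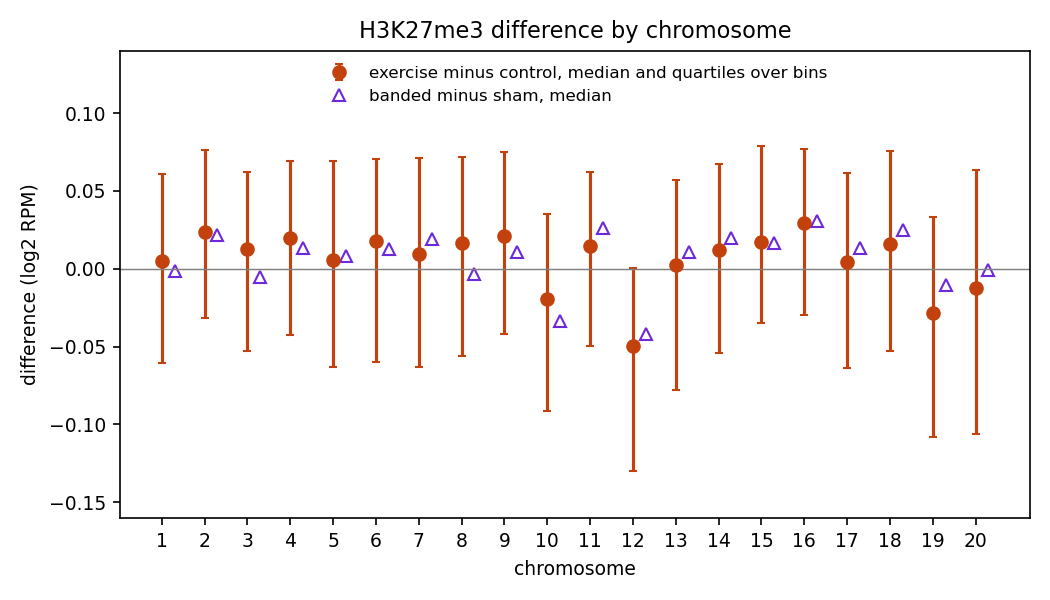
Median trained (exercise) minus control H3K27me3 (log2 RPM) for each of the 20 chromosomes, with bars for the quartiles over bins. Open triangles give the median of banded minus sham on the same chromosome. Chromosomes 10, 12, 19 and 20 lie below 0 in both differences.

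The larger losses gathered on those chromosomes too. Bins below -0.25 made up 5.15% of chromosome 19, 4.62% of chromosome 12, 4.48% of chromosome 20 and 4.05% of chromosome 10, against 1.74% of all bins, and at most 2.76% of any other chromosome (chromosome 3). Bins above 0.25 made up between 0.154% of chromosome 5 and 1.65% of chromosome 7, against 0.948% of all bins. Gains and losses differed in form. Of the 169 bins below -0.25, 153 (90.5%) came from density classes 1 to 3, against 30% of all bins. The median length of these losses was 260 kb, against 160 kb for all bins. Of the 92 bins above 0.25, 15 (16.3%) came from those classes, and 74 (80.4%) were shorter than 100 kb, against 26.7% of all bins. The losses covered 54.4 Mb and the gains 7.17 Mb.

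Neighbouring bins tended to go the same way. The sign was the same in 5513 of 9599 pairs of adjacent bins (57.4%), and Spearman's rho between neighbours was 0.185, or 0.337 once the median of the density class was taken off. The longest run of lower values was on chromosome 10 from 12045000 to 18125002, where 29 consecutive bins were lower in trained rats (median -0.061, lowest -0.35). On chromosome 19 from 49315000 to 56215002, 27 consecutive bins were lower, with a median of -0.15 and a summed signal of 2552 RPM in trained and 2784 RPM in control rats. The longest run of higher values was on chromosome 8 from 95175000 to 100615002, with 21 bins, a median of 0.080 and 2152 RPM in trained against 2030 RPM in control rats. On chromosome 3 from 127625000 to 131005002, 18 bins ran higher with a median of 0.091. These correlations are descriptions over 9683 pairs of bins from the same libraries.

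The widest single loss was on chromosome 5 from 133995000 to 134525002, a bin of 530 kb that was also the sparsest of all 9703. It stood at 3.43 log2 RPM in trained and 4.72 in control rats, a difference of -1.28, and at 6.95 in banded and 6.62 in sham rats. The trained value was the lowest of the 4 groups, and the surgery groups lay on average 2.71 above the training groups. H3K9me2 in the same interval was lower in trained than control rats by a log2 difference of -1.63. Its density there was -5.36 in trained and -3.73 in control rats, the lowest among the bins named here in both groups. The number of reads behind these values is unknown. The bins on either side differed by -0.0042 and 0.18.

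There were 3 other bins that were lower by more than 0.5. Chromosome 13 from 89945000 to 90025002 stood at 3.76 log2 RPM in trained and 4.44 in control rats (difference -0.67), and the bin before it had a difference of -0.32. Chromosome 12 from 43885000 to 43925002 stood at 2.76 in trained and 3.30 in control rats (-0.54). Chromosome 2 from 228795000 to 228965002 stood at 5.39 in trained and 5.90 in control rats (-0.52). In all 4 bins the trained value was the lowest of the 4 groups.

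The widest gain was on chromosome 4 from 101395000 to 101525002, with 3.25 log2 RPM in trained and 2.51 in control rats (difference 0.75), while banded rats had 4.82 and sham rats 4.51. Chromosome 6 from 142965000 to 143115002 had a like pattern, with 3.34 in trained and 2.80 in control rats, and 4.91 in banded and 4.60 in sham rats. In these bins and in the chromosome 5 bin the surgery groups exceeded the training groups by more than 1 on average, which was true of 6 of all 9703 bins and of 3 of the 12 past 0.5. Chromosome 7 from 15625000 to 15695002 (3.11 in trained, 2.59 in control rats) was also in density class 1. In these 3 gains the control value was the lowest of the 4 groups and the trained value lay between control and the surgery groups.

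The other 5 gains past 0.5 were of ordinary density, and in each the trained value was the highest of the 4 groups. Chromosome 8 from 4485000 to 4595002 had 5.99 log2 RPM in trained and 5.33 in control rats (difference 0.67), with banded rats at 5.72 and sham rats at 5.64. Chromosome 8 from 99735000 to 99805002 had 4.51 in trained and 3.90 in control rats (0.61), and the bin after it was higher by 0.31. It lies inside the run of higher values named above. Chromosome 20 from 11175000 to 11215002 had 3.98 in trained and 3.40 in control rats (0.58). Chromosome 4 from 175415000 to 175505002 had 5.42 in trained and 4.87 in control rats (0.55), with banded rats at 4.92 and sham rats at 4.87. Chromosome 14 from 6385000 to 6515002 had 5.89 in trained and 5.38 in control rats (0.51), with banded rats at 5.19 and sham rats at 5.23.

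**Figure D4:**
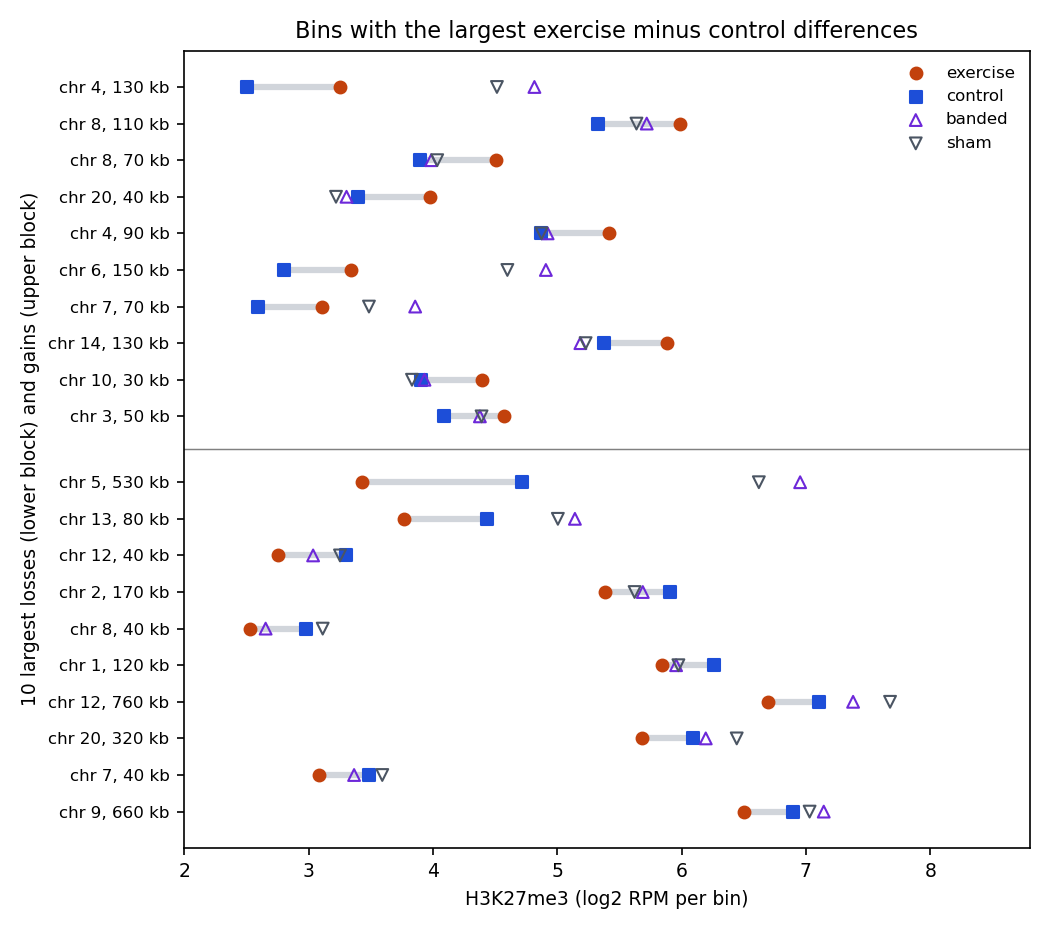
H3K27me3 (log2 RPM) in the 10 bins with the largest gain (upper block) and the 10 with the largest loss (lower block) in trained (exercise) against control rats, each labelled by chromosome and length in kb. Filled points are trained and control rats joined by a grey bar, open points banded and sham rats. On chromosome 5 the trained value is 3.43 and the sham value 6.62.

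The threshold cut through a continuous range. The gains just short of it were 0.49 on chromosome 10 from 97715000 to 97745002, 0.49 on chromosome 3 from 161635000 to 161685002 and 0.48 on chromosome 6 from 139305000 to 139965002. The losses just short of it were -0.44 on chromosome 8 from 126435000 to 126475002, -0.42 on chromosome 1 from 206455000 to 206575002 and -0.41 on chromosome 12 from 33055000 to 33815002. Of the 12 bins past 0.5, 3 (25%) had a neighbour past 0.25, against 504 of all 9703 bins (5.19%). None of the 12 had a neighbour past 0.5, which only 24 of all bins had. The 12 bins held 6.75 to 63.6 RPM in trained and 5.68 to 59.9 RPM in control rats.

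The longest single bins did not all go the same way, and neither did the densest. As a class, the 299 bins of at least 1000 kb were mostly lower in trained rats, with 30.1% higher. The longest, on chromosome 7 from 3235000 to 7855002, had 8.32 log2 RPM in trained and 8.54 in control rats (difference -0.23). The next, on chromosome 2 from 132945000 to 137525002, had 9.75 in trained and 9.73 in control rats. The third longest, on chromosome 15 from 27765000 to 32255002, had 9.81 in trained and 9.89 in control rats. The densest, on chromosome 4 from 80445000 to 80565002, had 7.89 in trained and 7.92 in control rats, and the second densest, on chromosome 9 from 18035000 to 18085002, had 6.64 in trained and 6.54 in control rats. The second sparsest bin, on chromosome 10 from 66135000 to 66585002, had 4.05 in trained and 4.06 in control rats. The third sparsest, on chromosome 4 from 46935000 to 47535002, was higher in trained rats, with 4.73 against 4.61 in control rats.

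Set against all 4 groups, the trained column stood at the outside more often than the control column. The control value lay within the range of the other groups in 7144 bins and the trained value in 2863. Banded and sham columns were not counted in this way, so these counts do not set the trained column apart from them. Over all 9703 bins, the trained value was the lowest of the 4 in 3133 and the highest in 3707. The control value was the lowest in 1477 and the highest in 1082. Of the 169 bins below -0.25, the trained value was the lowest of the 4 in 167 and the control value the highest in 7. Of the 92 bins above 0.25, the trained value was the highest of the 4 in 81 and the control value the lowest in 28. These bins were picked for the difference between trained and control, so the counts are a description.

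With bins ranked by the mean density of all 4 groups, the trained column deviated from the 4-group mean by a median of -0.15 in class 1 and 0.16 in class 10. The control column deviated by -0.080 in class 1 and 0.14 in class 10, the banded column by 0.075 and -0.17, and the sham column by 0.17 and -0.13. The training and surgery experiments therefore differed from each other along density by more than trained and control rats did. Start weight, surgery and experiment differ together between these pairs of groups and cannot be told apart.

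**Figure D5:**
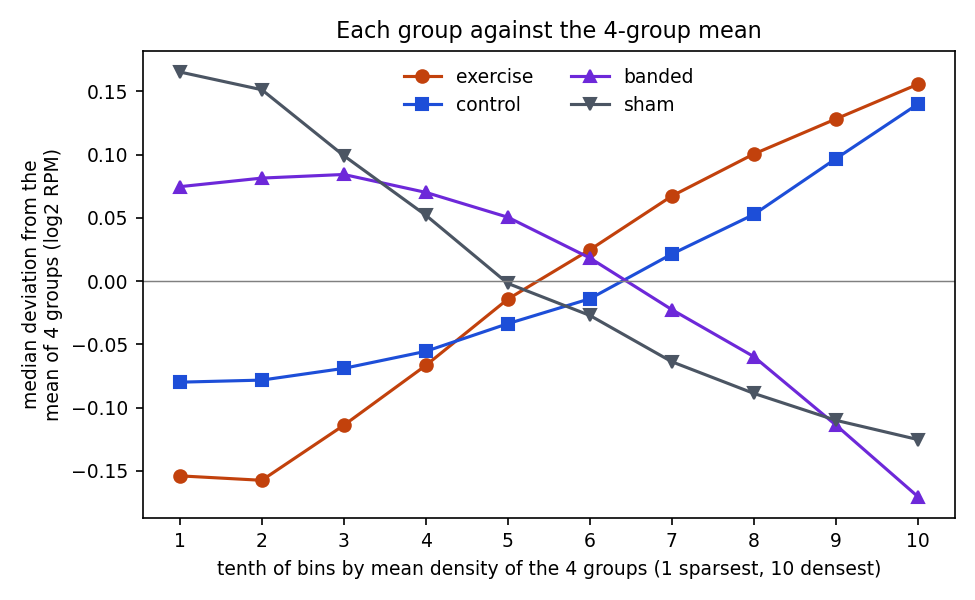
Median deviation of each group from the mean of the 4 groups (log2 RPM), for 10 classes of bins ranked on the mean density of the 4 groups. The trained (exercise) and control columns climb with density and the banded and sham columns descend, with the trained column at -0.15 in class 1 and the sham column at 0.17.

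The difference between banded and sham rats, which shares no sample with trained and control rats, had a similar layout over the genome. Over the 9703 bins Spearman's rho between both differences was 0.489 and Pearson's r 0.514. Of the bins in which both differences were nonzero, 68.1% had the same sign. With the median of the density class taken off both, rho was 0.449. Both differences are taken over the same bins and on a common list of values, bins are not independent, and these correlations are descriptions. On 17 of the 20 chromosomes both medians had the same sign, and chromosome 12 had the lowest in each (-0.049 with training, -0.042 with banding). In density class 1 the medians were -0.10 with training and -0.097 with banding. In class 10 they were 0.023 with training and -0.040 with banding, and in bins of at least 1000 kb -0.015 with training and 0.045 with banding. Whether the responses differ there could not be tested with 1 value per group.

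Past 0.25, banded rats were higher than sham in 142 bins (1.46% of all) and lower in 241 (2.48%). Of these, 64 were lower with training as well, which is 37.9% of the training losses and 26.6% of the banding losses. The gains shared 13 bins, 14.1% of those with training and 9.15% of those with banding. No bin (0) was higher with training and lower with banding past this value, and 1 was lower with training and higher with banding.

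H3K9me2 showed the opposite gradient along density. Past 0.25, it was higher in trained than control rats in 38 of 6171 H3K9me2 bins (0.616%) and lower in 64 (1.04%). Over the 9695 H3K27me3 bins that H3K9me2 bins covered by at least 50%, rho between the trained minus control differences of both marks was -0.376. Of those with a nonzero difference in both marks, 36.8% had the same sign. With the median of the H3K27me3 density class taken off both, rho was -0.317. Both marks were read from nuclei of the same groups, but H3K9me2 had bins of its own, averaged here by overlap. The same H3K9me2 value can therefore stand in several neighbouring H3K27me3 bins, and these correlations are descriptions. The median H3K9me2 difference was 0.038 in the bins sparsest in H3K27me3 and -0.044 in the densest, against -0.10 and 0.023 for H3K27me3 itself. Ranked by their own density, H3K9me2 bins had a median difference of 0.072 in class 1 and -0.083 in class 10. The chromosome 5 bin described above, sparse in both marks, was among the 1249 bins in which both were lower in trained rats. In the bin with the widest H3K27me3 gain, on chromosome 4, H3K9me2 was also lower in trained rats (-0.57).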

How the data were processed

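Chromatin immunoprecipitation of H3K27me3 was made from sorted PCM1-positive nuclei with 4 samples per group. The authors deposited log2 RPM per bin, as 1 column per group, with bins named as circular binary segmentation bins, per the file headers and names. Bowtie, SAMtools, R 2.15.1 and edgeR are named without their roles, per the submitters' processing notes. No source used here tells how samples were combined, whether input was subtracted, which samples set the bins, or the build. The nearly identical sorted values have the form that quantile normalization gives. Depth per sample is unknown, so no interval is given.

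From these values, differences (trained minus control), density, length and density classes and rank correlations were computed in Python 3.11.15 (scipy 1.17.1, numpy 2.4.6, pandas 2.3.3). Figures were drawn with matplotlib 3.10.9. The steps were tested on simulated data. H3K9me2 values were averaged over each H3K27me3 bin by overlap, with at least 50% covered. No test was run. RNA was not used here, since the names of its count columns match no sample title. Its gene IDs could also not be placed on the bins. Named bins are the 10 widest gains and losses, those nearest to a difference of 0.5, the longest, densest and sparsest bins, and the longest runs. The 10 widest of each direction are all plotted, and those past 0.5 described. Bins, classes and lists were chosen with earlier results of these data known.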

Additional observations from a re-analysis of the deposited data

How the results depend on the processing

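No paired analysis was possible because each group has 1 column, so no sample could be left out or matched. Of 55 alternative values, 43 stayed within 1.5 times the reported one, 12 moved further and 0 changed sign. Some of the 43 could not have moved. Taking the median off the difference, or rescaling the columns to the same total, shifts every difference by 1 constant. The SD, the density and length gaps and the chromosome span are then unchanged by construction. Counts, the SD and the span also cannot turn negative. The counts past the threshold depended most on the setting. With a threshold of 0.25 in place of 0.5, 92 bins were higher and 169 lower in trained rats, so that losses outnumbered gains, and with 1 there were 0 and 1. A pseudocount at the 10th percentile of RPM left 0 higher and 1 lower, and brought the gap between the densest and sparsest of 10 classes to 0.080 and that between the longest and shortest of 10 length classes to -0.047, against 0.12 and -0.079 without it. Without the lowest 10% of bins by log2 RPM, 4 were higher and 1 lower, and without the sparsest 10% 5 were higher. With density from the surgery columns the density gap was 0.074, and with density from all 4 columns, a choice made after seeing the data, 0.10. The other choices made after seeing the data, which took off the density class median, kept single length classes or left out chromosomes 10, 12, 19 and 20, are among the 43. Depth is unknown, so wide differences of bins with few RPM cannot be told from counting error.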
